A study of Mus musculus with 14 samples.

Results

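Genes of cholesterol synthesis and sterol sensing were followed in cortical microglia of mice after stroke. They were 8 in number, the enzyme genes Hmgcs1, Idi1, Fdps, Sqle, Cyp51 and Sc5d and the sensing genes Srebf2 and Insig1. They were taken by symbol from the gene count table of the study, where they are 8 of 14084 genes, and all 8 passed the filter on low counts that left 13861 genes for testing. Flow cytometry had been used to sort the microglia, the resident macrophages of the brain, out of cortical tissue, and total RNA was sequenced in 14 libraries. The mice were of the C57BL/6 strain. The same age, 8 to 10 weeks, is listed for every group, and whether it was the age at surgery or at sorting is not stated. If it was the age at surgery, mice taken on later days were also older than those taken earlier. The part of age in the results below was not tested. Sham mice had lesions of the skull surface alone. The other mice had a permanent ligature on the distal middle cerebral artery together with 7 min of occlusion of both common carotid arteries, and were taken on day 1, 3, 7, 21, 60 or 90. Each of the 7 groups held 2 libraries, called replicate 1 and replicate 2 after their labels. No transgene or drug is named for any group, and neither the sort markers nor the time at which sham mice were taken is given in the sources used here. The labels leave unstated whether both libraries of a group stem from different animals. The p-values below therefore measure only the spread between these samples, and that spread may be technical.

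Cholesterol is built from acetyl-CoA through the mevalonate pathway to farnesyl diphosphate, then to squalene, to lanosterol and finally to cholesterol. When sterols in the endoplasmic reticulum are low, the transcription factor SREBP-2, the product of Srebf2, is released from its complex with SCAP and INSIG proteins, is cut in the Golgi and raises transcription of the synthesis enzymes and of Insig1. In microglia, as in other phagocytes, sterols also arrive with engulfed myelin and dead cells, and they leave through transporters controlled by the liver X receptors.

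Because SREBP-2 is known to act on these promoters together with NF-Y and Sp1, the 250 bases before the start of 4 of the enzyme genes are shown, from RefSeq on GRCm38.p6, each written 5′ to 3′ along its gene and ending at the base before the RefSeq start. The first bases from that start occur in a GENCODE transcript of the gene for Idi1 and Cyp51 but were not found in one for Hmgcs1 and Sc5d, so positions in those 2 are relative to the RefSeq start alone. They come from chr13:119690101-119690350 on the plus strand for Hmgcs1, an early step, chr13:8885356-8885605 on the plus strand for Idi1, chr5:4104698-4104947 on the minus strand for Cyp51 and chr9:42264301-42264550 on the minus strand for Sc5d, the gene with the clearest change below. Capitals mark CCAAT, the letters of an NF-Y box, or its reverse complement ATTGG, and TCACNCCAC, the core of a sterol regulatory element.
Hmgcs1: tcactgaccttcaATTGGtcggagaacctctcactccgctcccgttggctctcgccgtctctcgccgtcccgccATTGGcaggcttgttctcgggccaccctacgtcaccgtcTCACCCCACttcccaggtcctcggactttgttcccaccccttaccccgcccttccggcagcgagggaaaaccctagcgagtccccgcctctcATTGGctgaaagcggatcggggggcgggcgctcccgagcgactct
Idi1: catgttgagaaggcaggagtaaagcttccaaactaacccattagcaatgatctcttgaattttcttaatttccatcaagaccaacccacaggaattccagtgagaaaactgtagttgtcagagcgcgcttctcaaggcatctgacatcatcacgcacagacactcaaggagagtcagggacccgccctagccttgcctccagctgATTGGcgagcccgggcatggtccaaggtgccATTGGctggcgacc
Cyp51: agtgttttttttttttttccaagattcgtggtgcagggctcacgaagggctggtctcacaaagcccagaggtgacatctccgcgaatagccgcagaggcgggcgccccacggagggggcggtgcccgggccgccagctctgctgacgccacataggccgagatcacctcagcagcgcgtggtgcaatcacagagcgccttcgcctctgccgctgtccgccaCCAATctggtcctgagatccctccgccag
Sc5d: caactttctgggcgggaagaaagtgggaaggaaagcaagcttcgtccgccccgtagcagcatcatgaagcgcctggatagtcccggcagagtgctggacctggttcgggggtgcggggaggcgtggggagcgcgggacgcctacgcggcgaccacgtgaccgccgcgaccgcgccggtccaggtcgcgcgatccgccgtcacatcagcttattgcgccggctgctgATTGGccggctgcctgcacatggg
RefSeq promoters were found for 6 of the 8 genes, the others being Sqle and Fdps. Searched on both strands, CCAAT was present in 6 of these 6 promoters, against 33.8% of the 32851 promoters of the same length. GGGCGG, the letters of an Sp1 box, was likewise present in 6 of 6, against 32.7%. TCACNCCAC was found in 1 of 6, in Hmgcs1 from base -137 to base -129 counted from the start, against 1.05% of all promoters. Only this exact pattern was searched. Sterol regulatory elements that differ from it were not looked for, so a promoter without a match may still hold one. No matches of these motifs overlapped in the 6 promoters. The CCAAT match nearest to the start lay at bases -45 to -41 in Hmgcs1, -14 to -10 in Idi1, -29 to -25 in Cyp51 and -24 to -20 in Sc5d.

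The libraries held from 15254983 to 28758420 counts in replicate 1 and from 100625099 to 191692779 in replicate 2, so depth divided every group in the same way, replicate 2 being 6.6 to 9.19 times as deep. Levels are given as CPM, counts scaled to library size, after TMM scaling. The sham libraries stood apart in markers of other cells. The sum of 10 neutrophil markers was 17614 and 30187 CPM in sham against 241 to 6416 CPM after stroke, and that of 10 microglia markers was 840 and 487 CPM in sham against 1107 to 19442 CPM after stroke. Each microglia marker had a count in at least 1 of the 2 sham libraries. The 2 erythroid markers in the table summed to 198 and 206 CPM in sham and to at most 4.41 CPM after stroke. Comparisons with sham all share these libraries, and the part of such markers in the results below was not tested. In sorted bulk RNA, fewer cells of a type and less RNA per cell cannot be told apart.

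Of the 8 genes, Sc5d changed most clearly: it was about 100 CPM in sham and lower in every library after stroke. Sqle, Cyp51 and Idi1 were lower than sham in both libraries of day 3, day 7, day 21 and day 60. Of these only Sqle on day 60 passed edgeR's test. Hmgcs1 and Fdps were higher in replicate 2 than in replicate 1, Hmgcs1 in 7 of 7 groups and Fdps in 6 of 7. Srebf2 and Insig1 were not called at any time. At day 90 all 8 genes were above day 60 within each replicate number.

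**Figure D1:**
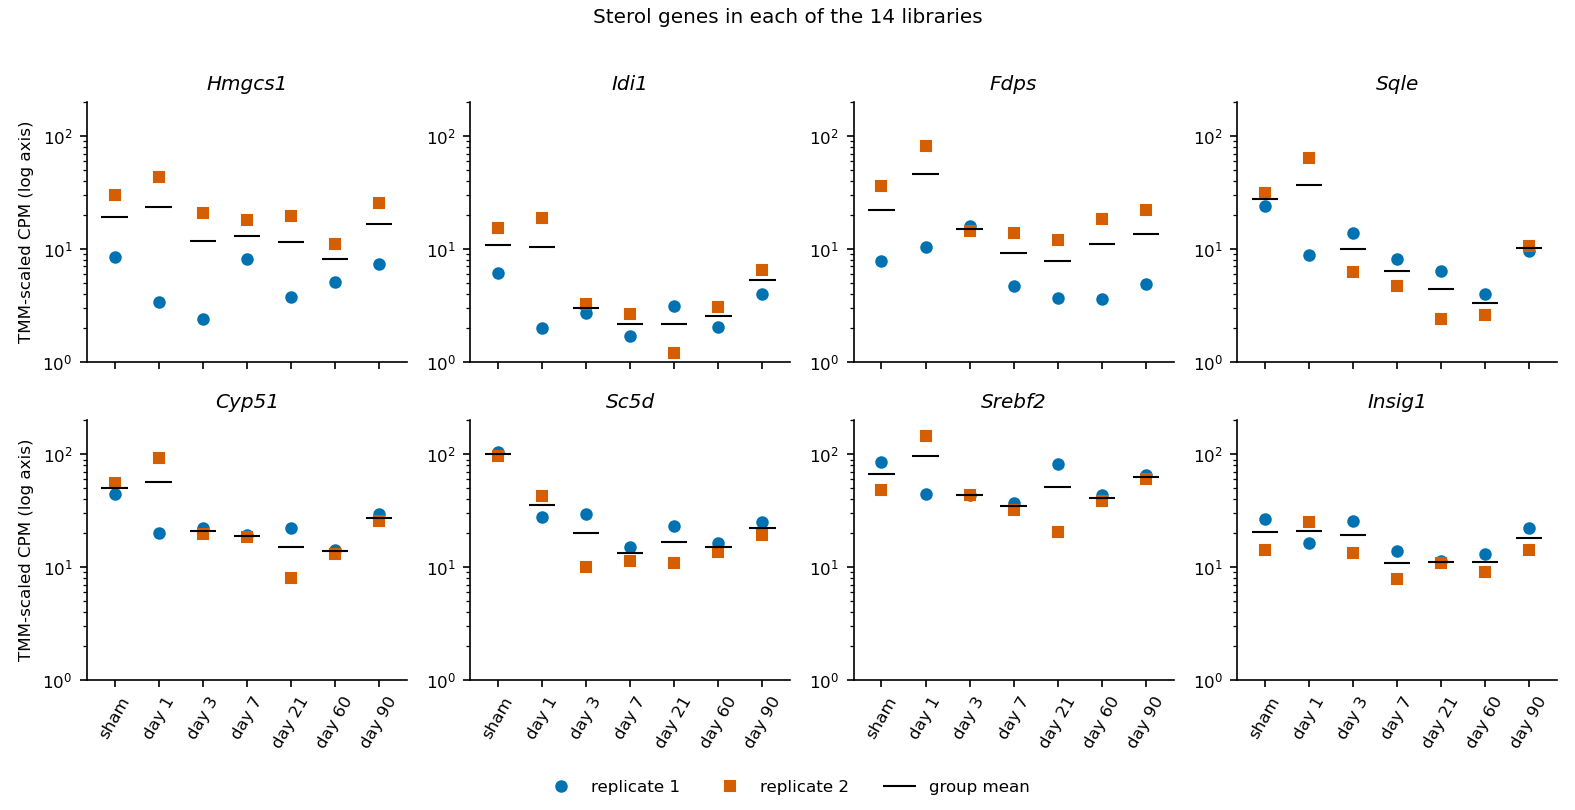
TMM-scaled CPM on a log axis for each of the 8 genes in sham and at the 6 times after stroke; circles are replicate 1, squares replicate 2 and bars the mean of the 2 libraries. Sc5d stands at 104 and 96 CPM in sham and at no more than 42.8 CPM after stroke, while Hmgcs1 is higher in replicate 2 in each of the 7 groups.

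Hmgcs1 encodes the cytosolic HMG-CoA synthase, an early enzyme of the mevalonate pathway. Its level was 8.55 CPM in replicate 1 and 30.1 CPM in replicate 2 of sham, 3.4 and 43.2 on day 1, 2.37 and 21 on day 3, 8.09 and 18 on day 7, 3.71 and 19.5 on day 21, 5.05 and 11.1 on day 60, and 7.41 and 25.6 on day 90. Replicate 2 was the higher library in 7 of 7 groups, and the groups overlapped throughout. Against sham the fitted log2 change ran from 0.27 ± 1.27 (SE, n = 2 against 2) on day 1 to -1.26 ± 1.29 on day 60, and edgeR's adjusted p was 0.571 or higher at all 6 times. Within replicate 1 and replicate 2 the log2 difference from sham was -1.32 and 0.52 on day 1 and -0.76 and -1.43 on day 60.

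Idi1 encodes isopentenyl-diphosphate isomerase, which interconverts the isoprene units that are joined by the next enzyme. Its level was 6.12 and 15.4 CPM in sham, 1.99 and 18.8 on day 1, 2.7 and 3.27 on day 3, 1.7 and 2.62 on day 7, 3.14 and 1.19 on day 21, 2.03 and 3.03 on day 60, and 3.99 and 6.55 on day 90. Both libraries of days 3, 7, 21 and 60 lay below both sham libraries, while day 1 and day 90 overlapped sham. The log2 change against sham was -2.31 ± 0.94 on day 7 and -2.32 ± 0.94 on day 21, and did not pass edgeR's test (adjusted p = 0.124 and 0.152). DESeq2 called Idi1 lower at both times, with adjusted p of 0.036 and 0.0471. Of the 50-base words of Idi1 transcripts, 17.7% also occur in transcripts of other genes, so its counts are uncertain where reads could be split.

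Fdps encodes farnesyl diphosphate synthase, the branch point from which sterols, dolichol and prenyl groups are made. Its level was 7.76 and 36.4 CPM in sham, 10.3 and 82.1 on day 1, 15.8 and 14.5 on day 3, 4.65 and 13.7 on day 7, 3.66 and 11.9 on day 21, 3.56 and 18.4 on day 60, and 4.93 and 22.1 on day 90. Replicate 2 was the higher library in 6 of 7 groups, day 3 being the exception, and each time overlapped sham. No change against sham passed edgeR's test: the log2 changes lay between 1.06 ± 1.15 on day 1 and -1.50 ± 1.16 on day 21, with adjusted p of 0.633 and 0.448. Fdps shares 26.2% of its 50-base words with other genes, 23.4% with the overlapping Gm43738, and its counts are uncertain for that reason.

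Sqle encodes squalene epoxidase, the first oxygen-dependent step and a main control point of the pathway. Its level was 23.8 and 31.6 CPM in sham, 8.85 and 64.3 on day 1, 13.7 and 6.19 on day 3, 8.09 and 4.67 on day 7, 6.37 and 2.4 on day 21, 3.98 and 2.6 on day 60, and 9.53 and 10.6 on day 90. Every library from day 3 on lay below both sham libraries, and the day 1 libraries lay on either side of sham. Sqle fell on day 60 by edgeR's test, with a log2 change of -3.08 ± 0.85 (SE, n = 2 against 2, adjusted p = 0.0461), and by -2.57 within replicate 1 and -3.59 within replicate 2. At day 21 the log2 change was -2.67 ± 0.83 (edgeR adjusted p = 0.0772), where DESeq2 (0.00808) and limma-voom (0.0398) called Sqle lower. DESeq2 also called it on day 7 (adjusted p = 0.0315), where edgeR (0.107) and limma-voom (0.0806) did not. The day 60 call was lost without either sham library (adjusted p = 0.141 and 0.123), without either day 60 library (0.163 and 0.282), without either library of day 3 (0.051 and 0.0506), day 7 (0.0606 and 0.0613) or day 90 (0.0726 and 0.0732), and with upper-quartile scaling (0.0533).

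Cyp51 encodes lanosterol 14-alpha-demethylase, a cytochrome P450 that removes a methyl group from the first sterol of the pathway. Its level was 44.6 and 55.7 CPM in sham, 20 and 92.9 on day 1, 22.4 and 19.7 on day 3, 19.4 and 18.7 on day 7, 22.3 and 7.94 on day 21, 14.3 and 13.2 on day 60, and 29.4 and 25.5 on day 90. From day 3 on both libraries of each time were below both sham libraries, and the day 1 libraries lay on either side of sham. The log2 change reached -1.87 ± 0.65 on day 60, where edgeR's adjusted p was 0.0961 and DESeq2's 0.0255. The call by edgeR appeared on day 60 without either day 1 library (adjusted p = 0.0316 and 0.0317). Cyp51 overlaps Akap9 on the opposite strand, and the strand setting of the counts is not given in the sources used here.

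Sc5d encodes sterol-C5-desaturase, which sets a double bond late in the pathway to make the precursor reduced by DHCR7. Its level was 104 and 96 CPM in sham, 27.8 and 42.8 on day 1, 29.9 and 10.1 on day 3, 15.1 and 11.4 on day 7, 23 and 10.8 on day 21, 16.4 and 13.5 on day 60, and 25.1 and 19.1 on day 90. All 12 libraries after stroke were below both sham libraries, and the day 1 libraries were in turn above those of day 90. Sc5d fell on day 3, with a log2 change of -2.33 ± 0.57 (SE, n = 2 against 2, edgeR adjusted p = 0.0275), on day 7, with -2.92 ± 0.58 (adjusted p = 0.00994), and on day 21, with -2.57 ± 0.57 (adjusted p = 0.0242). It was also lower on day 60, by a log2 change of -2.74 ± 0.58 (edgeR adjusted p = 0.0177), and on day 90, by -2.18 ± 0.56 (adjusted p = 0.0373). At day 1 the log2 change was -1.50 ± 0.55 and did not pass (adjusted p = 0.138). Both replicate numbers gave the same direction at each time, with log2 differences of -1.81 and -3.25 on day 3, -2.79 and -3.07 on day 7, and -2.06 and -2.33 on day 90. In the joint edgeR test over the 7 groups Sc5d was the 1 of the 8 genes that was called (adjusted p = 0.0243), against 7.21% of all genes tested.

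When any 1 of the 14 libraries was left out, Sc5d stayed below sham from day 3 on, with log2 changes between -3.31 and -1.74, but its calls depended on single libraries. Without sham replicate 1 the adjusted p from edgeR was 0.119 on day 3, 0.0502 on day 7, 0.1 on day 21, 0.0894 on day 60 and 0.146 on day 90, with log2 changes of -2.25, -2.82, -2.41, -2.69 and -2.05. Without sham replicate 2 the call was lost on day 3 (0.0894), day 21 (0.104), day 60 (0.0593) and day 90 (0.109). The call of day 3 was also lost without day 3 replicate 2 (log2 change -1.74, adjusted p = 0.148), and that of day 21 without day 21 replicate 2 (-2.12, 0.167). The call of day 7 was lost without day 7 replicate 1 (adjusted p = 0.0677) or replicate 2 (0.0846), and that of day 60 without day 60 replicate 1 (0.1) or replicate 2 (0.159). The day 90 call was lost without day 90 replicate 1 (0.168) or replicate 2 (0.251), without either library of day 7 (0.0535 and 0.0532) or day 60 (0.0592 and 0.059), and with upper-quartile scaling (0.05). When only the groups compared were fitted, the day 21 call was lost (adjusted p = 0.154).

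Srebf2 encodes SREBP-2, the transcription factor that drives the genes above. Its level was 84.9 and 48.4 CPM in sham, 45 and 147 on day 1, 43.4 and 43.3 on day 3, 37.4 and 32.2 on day 7, 82 and 20.7 on day 21, 43.8 and 38.9 on day 60, and 65.1 and 60.3 on day 90. The libraries of days 3, 7 and 60 lay below both sham libraries, whereas those of day 1 spread to both sides of sham. One day 21 library lay within the sham range and the other below it, and both day 90 libraries lay within it. The log2 change against sham lay between 0.53 ± 0.64 on day 1 and -0.94 ± 0.64 on day 7, with edgeR adjusted p of 0.672 and 0.358.

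Insig1 encodes the membrane protein that holds SCAP and SREBP-2 in the endoplasmic reticulum when sterols are plentiful, and it is itself an SREBP target. Its level was 27 and 14.1 CPM in sham, 16.3 and 25.2 on day 1, 25.5 and 13.3 on day 3, 14 and 7.79 on day 7, 11.3 and 10.9 on day 21, 13.1 and 8.97 on day 60, and 22.1 and 14.3 on day 90. The libraries of days 7, 21 and 60 were all below both sham libraries, and those of the other times overlapped sham. The log2 change was -0.92 ± 0.53 on day 7, -0.89 ± 0.53 on day 21 and -0.90 ± 0.53 on day 60, with edgeR adjusted p of 0.274, 0.317 and 0.298.

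Per kilobase of exon, Sc5d had the highest mean sham level of the 8 genes, 20.6 ± 1.22 CPM per kb (SD, n = 2). Fdps followed with 15.2 ± 14, Srebf2 with 13.1 ± 5.09, Cyp51 with 12.8 ± 1.99 and Sqle with 10 ± 1.98 CPM per kb. Insig1 with 7.62 ± 3.4, Hmgcs1 with 5.55 ± 4.38 and Idi1 with 3.55 ± 2.16 CPM per kb were lowest. Neighbours in this order overlapped in their 2 sham libraries, except Cyp51 and Sqle, which met at 11.4 CPM per kb. Over all 14 libraries the median of Sc5d, 4.32 CPM per kb, was below those of Fdps (8.83), Srebf2 (8.74), Cyp51 (5.39) and Insig1 (5.2).

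**Figure D2:**
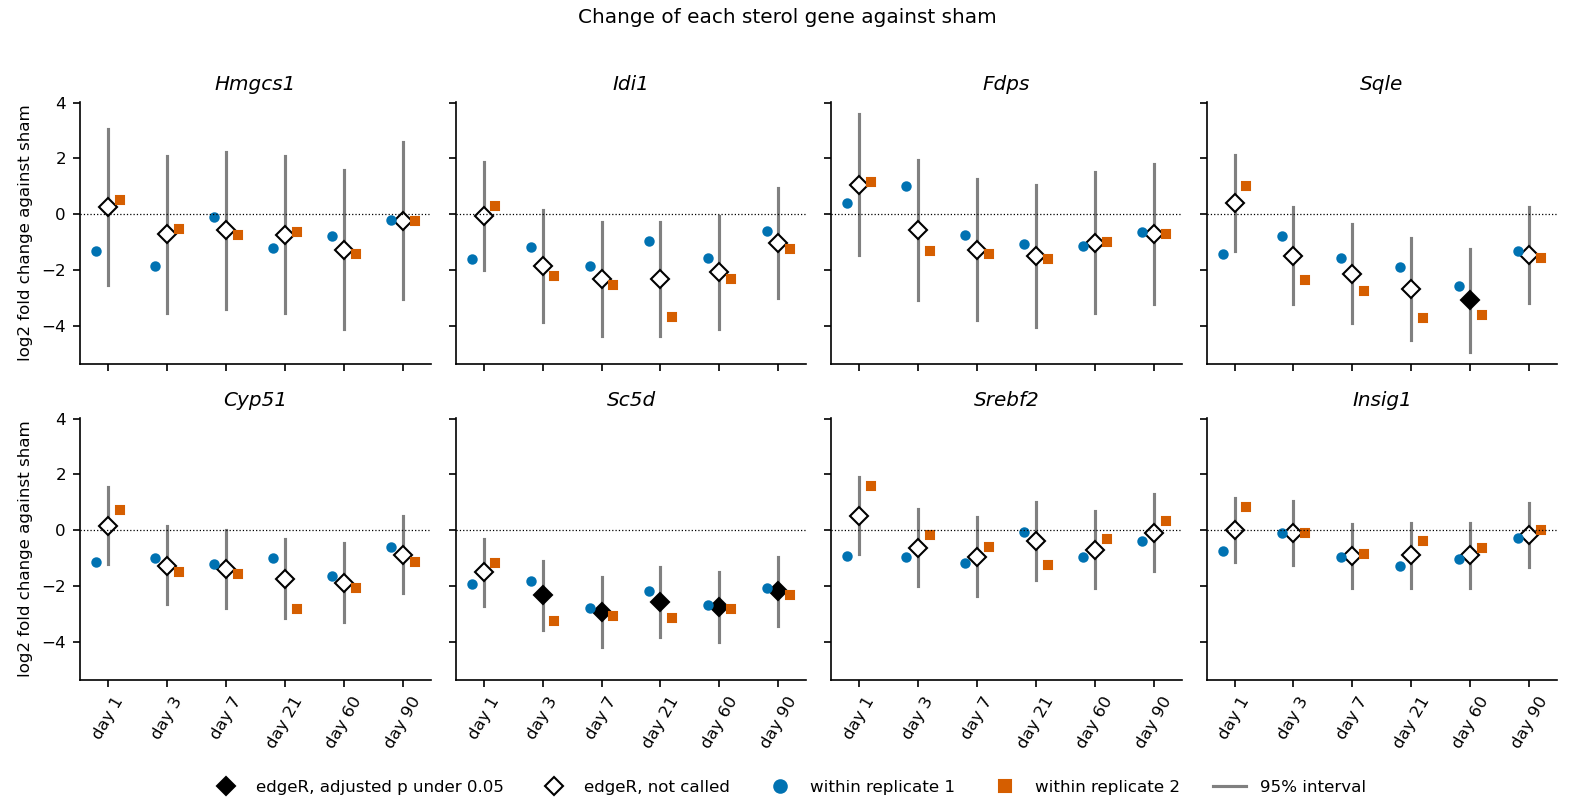
log2 change against sham at the 6 times for each gene; diamonds are the edgeR estimate with its 95% interval (filled where the adjusted p is under 0.05), circles the difference within replicate 1 and squares that within replicate 2. Sc5d is filled from day 3 to day 90 and Sqle on day 60; on day 1 the circles and squares of 6 genes lie on opposite sides of 0.

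Counted over the group, none of the 8 genes was higher than sham by edgeR at any time, and the calls were few. At day 1 none was lower either, where 4.55% of all tested genes were called, 1.37% lower; 1 of the 8, Sc5d, had an unadjusted p under 0.05. DESeq2 called none, against 6.16% of genes called lower, and limma-voom called none, against 3.95% called either way. At day 3, 1 of 8 was called lower (Sc5d; 3.07% of all genes were lower and 8.28% called in either direction), on day 7, 1 of 8 (Sc5d; 5.63% and 12.6%), and on day 21, 1 of 8 (Sc5d; 1.44% and 6.44%). At day 60 the count was 2 of 8, Sqle and Sc5d, against 2.89% of all genes lower and 7.85% called, and on day 90 it was 1 of 8, Sc5d, against 2.73% and 7.86%. DESeq2 called 1 of the 8 lower on day 3 (Sc5d; 9.28% of genes), 1 on day 90 (Sc5d; 8.48%), 3 on day 7 (Idi1, Sqle and Sc5d; 11.5% of genes), 3 on day 21 (the same 3; 6.05%) and 3 on day 60 (Sqle, Cyp51 and Sc5d; 9.53%).

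More of the 8 genes had both libraries below both sham libraries than passed the test. This held for 1 of 8 on day 1 against 23.0% of all genes, 5 of 8 on day 3 against 24.5%, 6 of 8 on day 7 against 27.6%, 5 of 8 on day 21 against 24.1%, 6 of 8 on day 60 against 26.9% and 3 of 8 on day 90 against 27.2%. None had both libraries above both sham libraries, where the share of all genes was 22.2% on day 1, 28.9% on day 3, 32.1% on day 7, 27.5% on day 21, 33.9% on day 60 and 36.4% on day 90. The median log2 change of the 8 genes was 0.22 on day 1, -0.99 on day 3, -1.33 on day 7, -1.62 on day 21, -1.56 on day 60 and -0.79 on day 90. For all genes the medians were 0.04, 0.15, 0.06, 0.06, 0.14 and 0.11. From day 3 to day 90 the estimate was below 0 for 8 of 8 genes. Of all genes tested, 45.4%, 47.6%, 47.8%, 45.9% and 46.5% were below 0 at these times. For Srebf2 and Insig1 on day 90 and Insig1 on day 3 the estimate was within 0.18 of 0 and changed sign with upper-quartile scaling. That scaling moved the median of all genes by 0.073 to 0.215. Fdps on day 3 changed sign in the fit with the replicate number as a block (0.13). Leaving out 1 library could also turn the sign, for Hmgcs1 on days 3, 7, 21 and 90. The same held for Fdps at each time from day 3 to day 90, Srebf2 on days 21 and 90, and Insig1 on days 3 and 90.

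At day 1 the 2 libraries lay on opposite sides of sham of the same replicate number for 6 of the 8 genes. In replicate 2, 6 of the 8 genes reached their highest level of the 14 libraries (Hmgcs1, Idi1, Fdps, Sqle, Cyp51 and Srebf2), against 6.59% of all genes and 6 of 15 other synthesis enzymes; this count was made after the values were seen. In replicate 1 the log2 difference from sham was -1.32 for Hmgcs1, -1.61 for Idi1, -1.43 for Sqle, -1.15 for Cyp51, -0.92 for Srebf2 and -0.73 for Insig1. In replicate 2 it was 0.52, 0.29, 1.03, 0.74, 1.60 and 0.84 for the same genes. Fdps was higher than sham in both (0.41 and 1.17), and Sc5d lower in both (-1.91 and -1.16). The day 1 libraries also differed in markers of other cells: neutrophil markers summed to 1081 CPM in replicate 1 and 5420 in replicate 2, monocyte markers to 1291 and 7052, endothelial markers to 16.4 and 304, and microglia markers to 3612 and 1107. Their part in the difference was not tested.

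For 2 of the 8 genes the difference between the replicate numbers passed the test, which was chosen after the values were seen. In the edgeR fit with group and replicate number, Hmgcs1 was higher in replicate 2 by 2.13 ± 0.34 on the log2 scale (adjusted p = 0.00379), in 7 of 7 groups and by 2.2 to 12.7 times. Fdps was higher by 1.87 ± 0.34 (adjusted p = 0.00787), in 6 of 7 groups. The other 6 genes were not called, and of all genes 9.42% were called, 4.99% higher in replicate 2 and 4.43% lower. Depth and the endothelial markers, which were lower in replicate 1 (15.2 to 46.7 CPM) than in replicate 2 (83.6 to 1496 CPM), went with the same division, and their part was not tested.

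**Figure D3:**
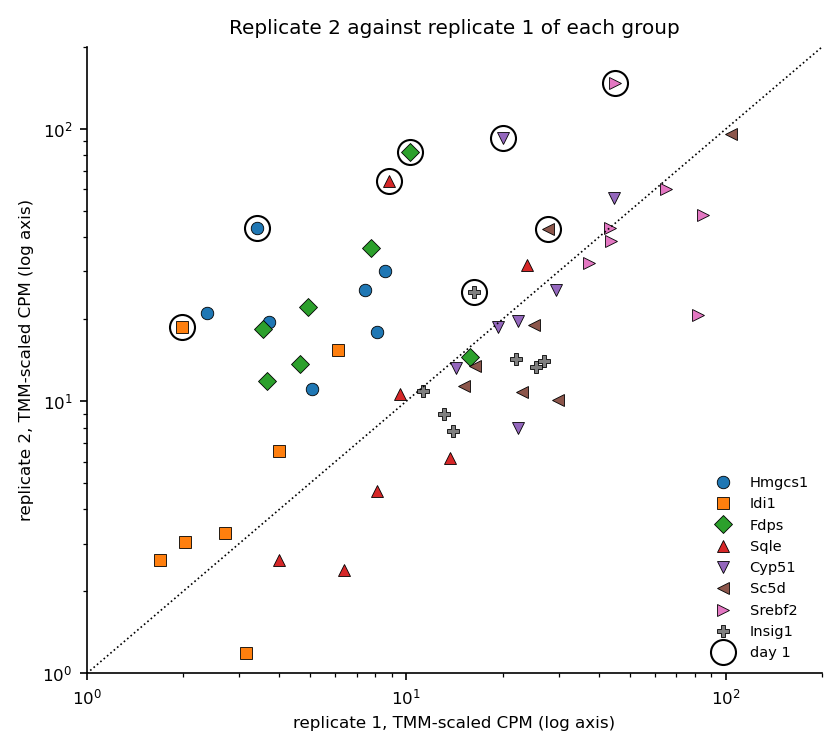
Level in replicate 2 against replicate 1, in TMM-scaled CPM on log axes, for the 8 genes in each of the 7 groups; the dotted line marks equal levels and rings mark day 1. The ringed points lie above the line for 8 of 8 genes, and Hmgcs1 lies above it in 7 of 7 groups.

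Day 90 was compared with day 60 after the values were seen, because the level of each of the 8 genes was higher on day 90 within both replicate numbers. Within replicate 1 the day 90 level was higher than that of day 60 by 1.47 times for Hmgcs1, 1.97 for Idi1, 1.39 for Fdps, 2.39 for Sqle, 2.06 for Cyp51, 1.53 for Sc5d, 1.49 for Srebf2 and 1.69 for Insig1. Within replicate 2 the ratios were 2.3, 2.16, 1.2, 4.09, 1.93, 1.41, 1.55 and 1.59. Thus 8 of 8 genes were higher in both replicate numbers, against 43.2% of all genes tested. The same held for 9 of 10 fatty acid synthesis genes, 10 of 15 other synthesis enzymes, 5 of 9 other sensing and uptake genes and 2 of 12 export and storage genes. Of the 8, 6 had both day 90 libraries above both day 60 libraries, against 28.8% of all genes. Several marker sums were also higher on day 90 in both replicate numbers. Microglia markers were among them, at 2352 and 2893 CPM on day 60 and 3883 and 4602 on day 90. Border-associated macrophage markers (1591 and 2058 CPM, then 1501 and 1708) and neuron markers were lower in both. Endothelial markers differed in direction between the replicate numbers. Neutrophil markers summed to 669 and 765 CPM on day 60 and to 3728 and 3302 on day 90, B cell markers to 165 and 158 and to 287 and 265, T and NK cell markers to 50.8 and 60.5 and to 93.9 and 105, and those of dividing cells to 40.5 and 30.9 and to 121 and 115. EdgeR called no marker of the microglia, neutrophil, B cell or T and NK cell lists in this comparison. The part of all these markers in the result was not tested. No single gene passed: the largest log2 difference was that of Sqle, 1.62 ± 0.80, with an edgeR adjusted p of 0.939, and edgeR called 0.00% of all genes. At an unadjusted p under 0.05 edgeR gave 442 genes and none of the 8, while DESeq2 called 22 genes, 0.156% of those it tested being lower, and limma-voom called 0, or 0.00%; none of these were among the 8.

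Days 60 and 90 together were also compared with days 1 and 3. None of the 8 genes was called by edgeR, against 2.62% of all genes, and none had groups that did not overlap, against 4.52% lower and 8.77% higher among all genes. At an unadjusted p under 0.05 edgeR gave 1 of 8, Sqle, with a log2 difference of -1.73 ± 0.57 (adjusted p = 0.145), which DESeq2 called (adjusted p = 0.0285; 3.67% of genes were called lower by it). For Sqle the difference was -0.84 within replicate 1 and -1.92 within replicate 2, and without day 1 replicate 1 edgeR called it (-2.13, adjusted p = 0.0279). In the same comparison 5 of 6 B cell markers and 5 of 7 T and NK cell markers were called higher late by edgeR, and their part was not tested.

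Across the 14 libraries the log2 levels of the 8 genes were positively related in most pairs, which was not computed for other sets of genes. Over the 28 pairs of genes Pearson's r had a median of 0.62 and ran from -0.17 to 0.96, as a description over points that share library, depth and cell content. Sqle with Cyp51 gave 0.96 and Idi1 with Cyp51 gave 0.92, whereas Hmgcs1 gave 0.02 with Sc5d and -0.17 with Insig1. The median was 0.64 among the 7 libraries of replicate 1, 0.85 among the 7 of replicate 2, and 0.53 without day 1 replicate 2. The lowest r was -0.51, 0.56 and -0.42 in these sets, with 2, 0 and 6 negative pairs. Of the 7594 genes whose mean log2 CPM was 3 or higher, those whose log2 level was most like the mean standardised level of the 8 were Pip5k1a (r = 0.919), Plk2 (0.917), Fam63a (0.913), Fbxl5 (0.888), Map2k1 (0.865) and Tkt (0.864). Day 1 replicate 2 was the highest of the 14 libraries for Pip5k1a (32.4 CPM), Plk2 (463), Fam63a (181), Fbxl5 (1137) and Tkt (507), while Map2k1 was highest in sham replicate 2 (246 CPM).

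The rest of the pathway was read from 4 lists. Of 15 other synthesis enzymes in the table, 1, Lbr, was called by edgeR, lower on day 3, day 7, day 21, day 60 and day 90, with log2 changes of -4.42 ± 0.92, -4.54 ± 0.93, -3.20 ± 0.87, -4.60 ± 0.93 and -3.48 ± 0.88 and adjusted p of 0.0157, 0.0115, 0.0498, 0.0146 and 0.0355. Of all genes tested, 3.07%, 5.63%, 1.44%, 2.89% and 2.73% were called lower at these times. In either direction the shares were 8.28%, 12.6%, 6.44%, 7.85% and 7.86%. Lbr encodes the lamin B receptor, a protein of the inner nuclear membrane that is also a sterol C14-reductase and is abundant in neutrophils. It was 1310 and 1090 CPM in sham and between 36.5 and 225 CPM after stroke, and in sham it stood beside neutrophil markers of 17614 and 30187 CPM, whose part was not tested. Leaving out 1 library at a time ended the Lbr call in 4 of 14 fits on day 3, 3 on day 7, 11 on day 21, 4 on day 60 and 8 on day 90, sham replicate 1 being among those libraries at each of these times (adjusted p from 0.05 on day 7 to 0.159 on day 21). The median log2 change of the 15 enzymes was 0.63 on day 1, 0.03 on day 3, -0.25 on day 7, -0.60 on day 21, -0.50 on day 60 and -0.17 on day 90.

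Of 9 other sensing and uptake genes, edgeR called 0 at every time against sham. At an unadjusted p under 0.05 it gave 2, 3, 1, 2, 4 and 1 of them from day 1 to day 90. DESeq2 called 1, 3, 1, 0, 2 and 0 of them, where it called 14.4%, 20.5%, 23.9%, 17.6%, 20.1% and 19.8% of all genes in either direction. The counts of limma-voom were 0, 0, 1, 1, 1 and 0, beside 3.95%, 9.26%, 13.5%, 12.2%, 8.72% and 9.91% of all genes.

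Among genes of sterol export and storage most calls were higher. Of 12, edgeR called 5 higher on day 1, 5 on day 3, 6 on day 7, 2 on day 21, 5 on day 60 and 5 on day 90. Of all genes tested, 4.55%, 8.28%, 12.6%, 6.44%, 7.85% and 7.86% were called in either direction at these times. Microglia markers were likewise lower in sham (840 and 487 CPM) than after stroke (1107 to 19442 CPM), and their part was not tested. The 1 called lower on day 1 was Cyp27a1, the sterol 27-hydroxylase (-1.52 ± 0.37, adjusted p = 0.037), a call lost in 10 of the 14 fits that left out 1 library. EdgeR called none of the 12 lower at the other times. Cyp27a1 was below both sham libraries (53.7 and 56.1 CPM) also on day 3 (21.1 and 25.8 CPM, log2 change -1.23 ± 0.36, edgeR adjusted p = 0.0574) and day 7 (19.9 and 28.7 CPM, -1.18 ± 0.36, 0.0532). DESeq2 called it at both of these times and limma-voom on day 7, and DESeq2 also called Cyp7b1 on day 7. Abca1, the transporter that loads cholesterol onto apolipoproteins, was 11.5 and 4.12 CPM in sham and 146 to 350 CPM after stroke. It rose by 4.40 ± 0.63 on day 1 and 5.16 ± 0.65 on day 21 on the log2 scale (edgeR adjusted p = 0.00366 and 0.0017), and kept its call at each of the 6 times whichever of the 14 libraries was left out. Nr1h3, the liver X receptor alpha, rose by 3.32 ± 0.67 on day 1 and 4.68 ± 0.72 on day 60 (adjusted p = 0.0183 and 0.00405), calls that were lost without sham replicate 1 (0.159 and 0.0634), the first also without sham replicate 2 (0.101) or day 1 replicate 1 (0.0862). It was 16 and 3.6 CPM on day 21 against 4.43 and 7.09 CPM in sham. Ch25h, cholesterol 25-hydroxylase, whose product 25-hydroxycholesterol is known to hold back SREBP-2, had 1 and 6 counts in the sham libraries and 1.27 to 40 CPM after stroke. It was called higher at each of the 6 times (adjusted p between 0.00117 and 0.0102). Those calls were lost without sham replicate 1 on day 60 (0.0559) and day 90 (0.0679), and without sham replicate 2 on day 1 (0.0551), day 60 (0.0586) and day 90 (0.0973). Limma-voom did not call Ch25h on day 60 (0.0745) or day 90 (0.115).

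Among 10 fatty acid synthesis genes, Fads1, the delta-5 desaturase, rose at all 6 times, from 2.24 and 1.2 CPM in sham to between 23.5 and 109 CPM (log2 changes of 4.47 ± 0.64 on day 3 and 5.67 ± 0.68 on day 7, edgeR adjusted p = 0.00298 and 0.00134). Without sham replicate 2 its calls on day 1 (0.0764), day 21 (0.0529) and day 60 (0.0503) were lost. Scd2, a stearoyl-CoA desaturase, rose on day 7 and day 21 (2.21 ± 0.60 and 2.41 ± 0.61, adjusted p = 0.0343 and 0.0394), calls lost in 5 and 7 of the 14 fits that left out 1 library. Of the 10, edgeR called 1, 1, 2, 2, 1 and 1 higher than sham from day 1 to day 90, and none lower. Of all genes tested, 4.55%, 8.28%, 12.6%, 6.44%, 7.85% and 7.86% were called in either direction at these times. The shares called lower were 1.37%, 3.07%, 5.63%, 1.44%, 2.89% and 2.73%.

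**Figure D4:**
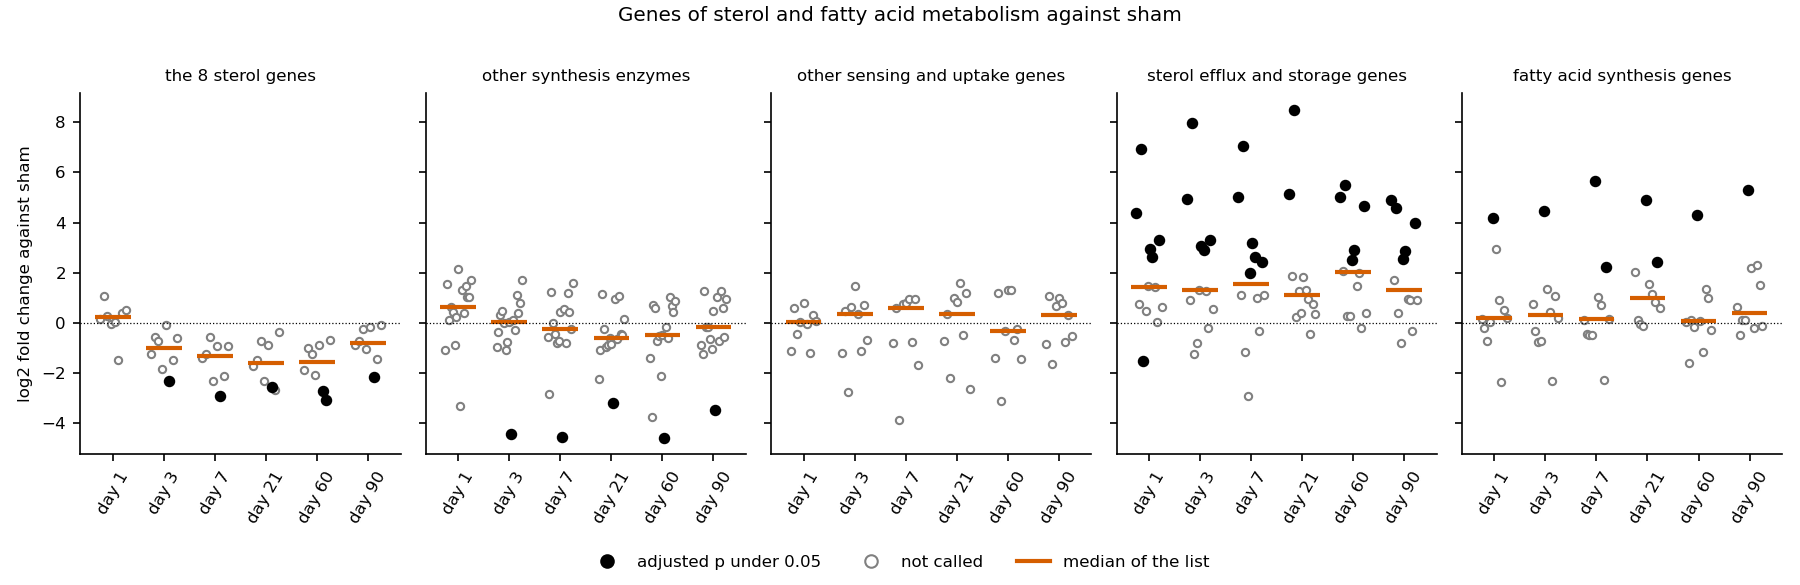
log2 change against sham of the 8 sterol genes and of the 4 other lists at the 6 times; each point is a gene, filled where edgeR's adjusted p is under 0.05, and the bar is the median of the list. The bars of the 8 genes run from 0.22 on day 1 to -1.62 on day 21, and those of the 12 export and storage genes from 1.10 on day 21 to 2.03 on day 60.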

How the data were processed

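RNA of sorted cortical microglia was sequenced in 14 libraries, 2 in each of 7 groups, which were read from the sample titles. The authors deposited whole-number counts per gene, as 1 table of the series and 1 file per library, and all values agreed between them. The submitters' processing notes name HTSeq 0.6.1, Bowtie2 2.3.4.2 and, as genome build, mm9. Which annotation and which strand setting were used, and how reads with several alignments were treated, is not given in the sources used here. The 8 genes and the lists were chosen with earlier results of these data known, so no pattern among them is independent support.

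Counts were fitted with edgeR 4.0.16 (R 4.3.3) by the robust quasi-likelihood test over all 14 libraries with TMM scaling and 1 mean per group, after filterByExpr removed 223 of 14084 genes. P-values were adjusted by Benjamini-Hochberg over the 13861 genes tested and called under 0.05. The common biological coefficient of variation was 0.639, with 7 residual degrees of freedom. Data were simulated for day 7 against sham over 13861 genes, 87 of them changed by a log2 of 2 and 113 by 4. Of these, 2.3% and 52.2% were recovered. The real comparison called far more genes, 1751 or 12.6%, so its adjusted threshold was less strict. The simulated shares therefore do not measure what the real fits could recover. DESeq2 1.42.0, limma-voom (limma 3.58.1), RLE and upper-quartile scaling, no filter, a replicate block, fits of only the groups compared and the omission of each library were alternatives. Within-replicate differences compare libraries of 1 number. The genes named are the 8, the called genes of the 4 lists with the largest changes (up to 3 a direction), and the 6 genes most like the 8 by Pearson's r. Some genes are not reported here. The comparison of day 90 with day 60, the test of replicate number and the count of highest libraries were added after the values were seen. Exon lengths, overlapping genes and shared 50-base words came from GENCODE on GRCm38, and promoters from RefSeq on GRCm38.p6; these are not the build of the counts.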

Additional observations from a re-analysis of the deposited data

Results flagged for a closer look

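Between days 60 and 90 together and days 1 and 3 together, 3 genes of the wider sterol and fatty acid lists differed by edgeR's test of that difference. Ch25h, cholesterol 25-hydroxylase, was lower late, with a log2 difference of -2.41 ± 0.49 (adjusted p = 0.0241): it was 11.1, 6.1, 13.2 and 22 CPM in the libraries of days 1 and 3 and 4.32, 2.06, 2.12 and 1.27 CPM in those of days 60 and 90, and the call was lost in 6 of the 14 fits that left out 1 library. Cyp27a1, sterol 27-hydroxylase, was higher late by 1.72 ± 0.26 (adjusted p = 0.00539), from 17.8, 20.4, 21.1 and 25.8 CPM to 70, 64.2, 71 and 73.4 CPM, and kept its call in each of those 14 fits; in sham it was 53.7 and 56.1 CPM. Scd1, a stearoyl-CoA desaturase, was higher late by 4.16 ± 0.86 (adjusted p = 0.0253), from 0.738, 1.52, 1.58 and 0.842 CPM to 18.7, 11.1, 37.9 and 20.7 CPM, and its call was lost in 8 of the 14 fits. Called were 2 of 12 export and storage genes, 1 of 10 fatty acid synthesis genes, 0 of 15 other synthesis enzymes and 0 of 9 sensing and uptake genes. Of all genes tested, 2.62% were called. For each of these 3 genes the early and late libraries did not overlap, against 8.77% of all genes higher and 4.52% lower. That rests on the same values as the calls and is not separate support. In the same comparison edgeR called 5 of 6 B cell and 5 of 7 T and NK cell markers higher late: B cell markers summed to 7.46 to 21.6 CPM in the early libraries and 158 to 287 CPM in the late ones, and T and NK cell markers to 3.03 to 8.19 CPM and 50.8 to 105 CPM, and their part in these differences was not tested.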

How the results depend on the processing

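Among the 64 log2 changes of the 8 genes, the direction and the side of the threshold held in 64 without the filter, 63 with RLE scaling, 58 with upper-quartile scaling, 57 with DESeq2, 60 with limma-voom, 59 when only the groups compared were fitted and 61 with the replicate block; no paired samples are stated, and same-numbered libraries deviated together with correlations of 0.071 to 0.677 over genes, so the block is a number that libraries share. For day 1, 3, 7, 21, 60 and 90 against sham, late against early and the joint test, DESeq2 called 1869, 2669, 3176, 2426, 2665, 2624, 1166 and 3515 genes, and the replicate block 1195, 2002, 2766, 1584, 1953, 2006, 611 and 1635. DESeq2 called 22 genes at day 90 against day 60, limma-voom called 1696 at day 21, 707 late against early and 651 in the joint test, and fits of only the groups compared gave 0 at day 21, 1675 at day 60, 2620 at day 90 and 551 late against early. Of the 8 genes DESeq2 called 3 at day 7, 3 at day 21, 1 late against early and 4 in the joint test, limma-voom 2 at day 21, upper-quartile scaling 1 at day 60 and 0 at day 90, and the groups compared alone 2 at day 7, 0 at day 21 and 2 at day 90. Signs turned for Hmgcs1 at day 1 (limma-voom -0.005, replicate block -0.20) and late against early (block 0.01), Idi1 at day 1 (0.04 with upper-quartile scaling and with the groups compared alone), Fdps at day 3 (block 0.13), Cyp51 at day 1 (limma-voom -0.07), Srebf2 at day 90 (limma-voom 0.01, upper quartile 0.10), and Insig1 at day 1 (-0.03 with DESeq2 and RLE), day 3 and day 90 (0.02 with upper quartile in both). The cause was not tested. Leaving out 1 library gave 76 to 1098 at day 1, 225 to 1815 at day 3, 355 to 2457 at day 7, 68 to 2410 at day 21, 132 to 1750 at day 60, 129 to 1800 at day 90, 119 to 695 late against early and 224 to 2185 in the joint test for all genes called. For the 8 genes it gave 0 to 1 at day 3, 0 to 3 at day 7, 0 to 3 at day 21, 0 to 3 at day 60, 0 to 1 at day 90, 0 to 1 late against early and 0 to 3 in the joint test. Log2 changes that turned sign in at least 1 of these fits were these. For Hmgcs1 they ran from -2.51 to 1.45 (day 1), -3.03 to 0.46 (day 3), -1.26 to 0.61 (day 7), -2.38 to 0.45 (day 21), -1.30 to 0.95 (day 90), -1.10 to 0.87 (late against early), -0.02 to 1.73 (day 90 against day 60). For Idi1 they ran from -2.44 to 0.81 (day 1), -1.03 to 0.58 (late against early). For Fdps they ran from -1.10 to 2.57 (day 1), -1.24 to 0.96 (day 3), -2.25 to 0.25 (day 7), -2.59 to 0.01 (day 21), -2.64 to 0.50 (day 60), -2.08 to 0.80 (day 90), -1.04 to 1.92 (day 90 against day 60). For Sqle they ran from -1.65 to 1.22 (day 1). For Cyp51 they ran from -1.32 to 0.89 (day 1). For Srebf2 they ran from -0.57 to 1.15 (day 1), -1.66 to 0.30 (day 21), -0.44 to 0.45 (day 90), -0.65 to 0.20 (late against early). For Insig1 they ran from -0.38 to 0.58 (day 1), -0.62 to 0.48 (day 3), -0.58 to 0.45 (day 90). With 1 library left, a group is assumed to vary like the others. The 7 residual degrees of freedom and the spread between replicates limit what could be called, and the shallower replicate 1 gives the less precise levels.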
